A study of Mus musculus with 19 samples.

Results

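Expression of 7 genes for vasoactive peptides and their receptors was followed in hepatic stellate cells (HSCs) during activation in culture. The genes were Edn1 (endothelin-1, the peptide ligand), Ece1 (endothelin converting enzyme 1), the endothelin receptors Ednra and Ednrb, and the receptors Agtr1a for angiotensin II, Pth1r for parathyroid hormone and its related peptide, and Vipr1 for vasoactive intestinal peptide. They were chosen by name, with earlier results of these data known, and matched by Ensembl identifier. They are 7 of the 55487 genes in the count table. All 7 passed the filter on low counts, which 15138 genes passed. HSCs had been sorted by ultraviolet positivity from the livers of male Balb/c mice, which were healthy and between 23 and 24 weeks old. Untreated cells were collected without culture (0 h, 2 samples). The other cells were kept on collagen-coated plates in medium with 10% serum (treatment label 10pctDMEM) for 3, 6, 12, 18 or 96 h (3 samples each) or 24 h (2 samples). The deposited sample names of 0 h also hold 10pctDMEM, although those cells were not cultured. Each of the 19 samples stands for 2 technical repeats, which the counts do not separate, and no transgene, allele or other agent is given for any group.

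Endothelin-1 is cut from its precursor by endothelin converting enzyme and is among the strongest known constrictors of blood vessels. HSCs wrap around the liver sinusoids, respond to endothelin-1 and angiotensin II by contraction, and are known both to carry endothelin receptors and, once activated, to make the peptide. EDNRA and EDNRB, like the angiotensin receptor, couple mainly to Gq and calcium, whereas the receptors for parathyroid hormone and for vasoactive intestinal peptide belong to class B and couple mainly to Gs and cyclic AMP.

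Total counts per sample lay between 2073171 and 7690892, so that 3 counts, taken as the smallest level that can be shown, corresponded to 0.386 to 1.51 CPM. Levels are counts relative to the TMM-scaled library total (CPM), given as mean ± SD with n samples or sample by sample, and changes as log2 fold changes with their standard error (SE). The floor covers counting error only, since the reads carry no molecular identifiers. The libraries were read from the 3' end of transcripts, so that levels are compared here between times for the same gene and not between genes. Changes were called where edgeR's quasi-likelihood test gave an adjusted p below 0.1 (Benjamini-Hochberg, over all genes tested) with more than a 2-fold difference. Samples numbered 1 and 3 share an isolation date at all times and those numbered 2 have another, and p-values measure the spread between these samples. In the count table a gene can be listed at 0 in a sample whose companions hold 50 counts or more, which occurred in 6.58% of the 37921 gene and time pairs where it could be seen, and for Pth1r at 6 h and Vipr1 at 18 h. Folds given as at least a value take a listed 0 as a level below the floor, which was not tested. The 15 stellate cell markers were all detected at 0 h, Gfap in sample 2 only. Dcn alone was at 18182 and 20177 CPM in samples 3 and 2 at 0 h, the largest part of the sum. The 15 markers summed to 31760 to 36980 CPM at 0 h and to 2087 to 2103 CPM at 24 h. Those of hepatocytes were highest at 0 h too (3868 to 7851 CPM over 10 genes, against 26.3 to 101 CPM at 96 h).

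Counted over the 6 times, 33 of 42 comparisons of a member with 0 h were called, 7 higher and 26 lower. At 3 h, 2 of 7 members (Edn1 and Ednrb) were called higher and 0 lower, against 4.19% and 1.39% of all genes tested. In that comparison 3 members had an unadjusted p below 0.05 upwards and 0 downwards (edgeR), and DESeq2 called 1 higher and 0 lower. At 6 h, Edn1 was higher and Agtr1a, Pth1r and Vipr1 were lower, where the background was 6.98% higher and 4.35% lower. Edn1 was the member called higher at 12, 18 and 24 h, and all 6 others were called lower at each of these times. The background was 8.6% higher and 9.1% lower at 12 h, 7.64% and 8.21% at 18 h, and 5.65% and 3.86% at 24 h. At 96 h, 1 member was called higher and 5 lower, against 5.83% and 5.03%. The median log2 fold change of the 7 genes was -0.82, -1.20, -2.97, -3.47, -4.17 and -3.25 after 3, 6, 12, 18, 24 and 96 h, respectively, whereas the median over all genes tested was 0 up to 24 h and 0.070 at 96 h. All of these comparisons share the same 2 samples at 0 h. Because the members were chosen with earlier results of these data known, the shares beside the background are a description only. Within the isolation date of samples 1 and 3, 0 h and 24 h have 1 sample each. In that run fewer of the 42 comparisons were called, and fewer of all genes were called at each of the 6 times. In whole-culture RNA, fewer cells of a type and less RNA per cell cannot be told apart.

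**Figure D1:**
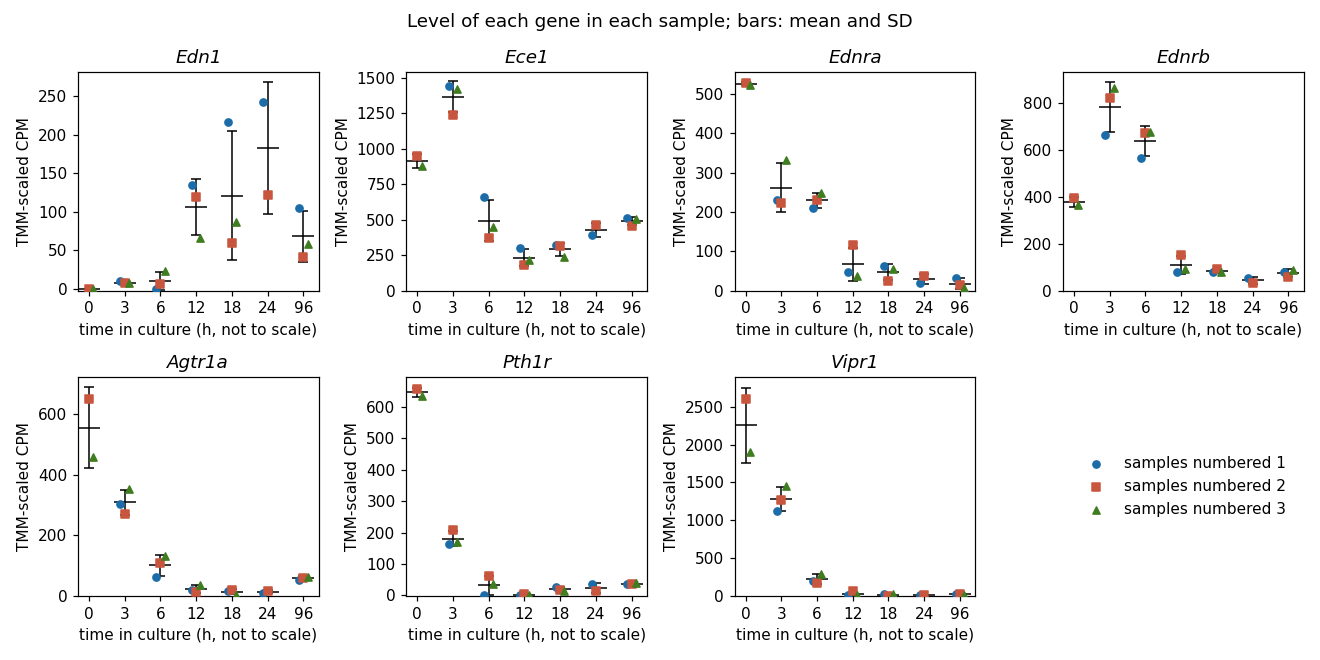
Level of each of the 7 genes in every sample (vertical axis, TMM-scaled CPM) against time in culture (horizontal axis, h, not to scale), with symbols for the sample number and black bars for mean and SD. Edn1 goes from 0 CPM in both 0 h samples to 122 and 243 CPM at 24 h, Ece1 and Ednrb are highest at 3 h, and Ednra, Agtr1a, Pth1r and Vipr1 are highest at 0 h.

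Between successive times, 6 of 35 comparisons were called, and 4 within the isolation date of samples 1 and 3. From 3 h to 6 h, Ece1 and Agtr1a fell (2 of 7 lower and 0 higher, against 1.99% and 2.5% of all genes). From 6 h to 12 h, Ece1, Ednrb and Agtr1a fell (3 of 7 lower and 0 higher, against 1.42% and 0.416%). For the upward direction, edgeR gave 0 members from 3 h to 6 h and 1 from 6 h to 12 h with an unadjusted p below 0.05, and DESeq2 called 0 and 1. From 12 h to 18 h, edgeR called 0 members, 1 had an unadjusted p below 0.05 (upwards), and DESeq2 called 0. The background of that step was 0.0727% higher and 0.152% lower. From 18 h to 24 h, edgeR also called 0 members, with 1 higher and 1 lower at an unadjusted p below 0.05 and 0 called by DESeq2, where the background was 0.0132% higher and 0.0264% lower. From 24 h to 96 h, Agtr1a alone rose, against 1.37% higher and 1.35% lower.

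**Figure D2:**
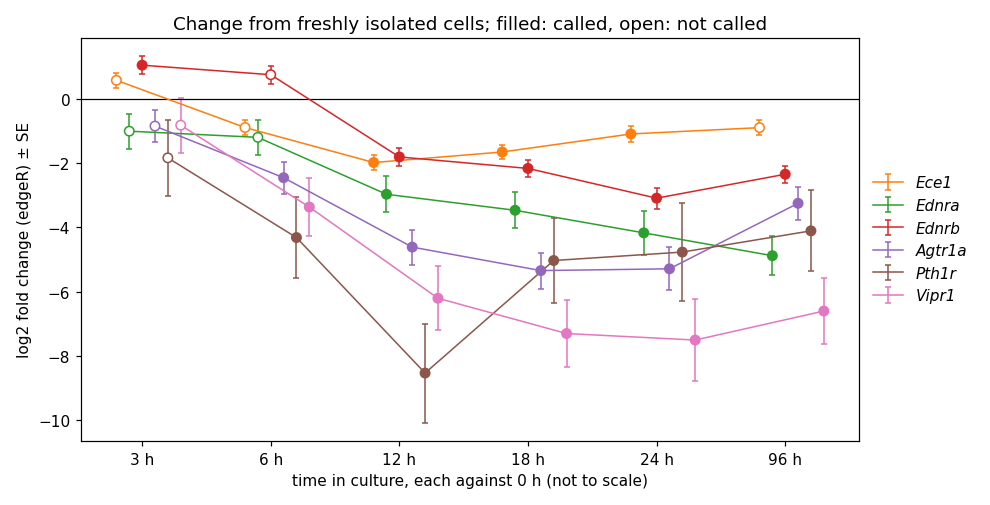
Log2 fold change of 6 genes against 0 h (vertical axis, edgeR, bars: standard error) at each time (horizontal axis, not to scale), with filled points for called changes and open points for those not called. Edn1 is left out because its 0 h samples are all at 0. Ednrb is called above 0 at 3 h, all 6 genes are called below 0 at 12, 18 and 24 h, and Vipr1 and Pth1r lie lowest at 12 h.

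For Edn1, the member that rose, and Vipr1, which fell furthest of the members at 18, 24 and 96 h, the sequence before the transcription start is shown, because they moved in opposite directions. Promoter entries of RefSeq (GRCm38.p6) were found for 6 of the 7 genes, not for Agtr1a. Each entry holds 250 bases before and 50 after a start, of which the 250 before are printed, 5' to 3' on the strand of the gene.
Edn1, chr13:42301226-42301475, plus strand: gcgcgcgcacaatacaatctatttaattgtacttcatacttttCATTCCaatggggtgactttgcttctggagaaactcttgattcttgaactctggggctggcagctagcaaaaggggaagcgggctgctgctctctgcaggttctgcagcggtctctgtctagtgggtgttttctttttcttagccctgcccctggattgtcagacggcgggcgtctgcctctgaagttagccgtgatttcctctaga
Vipr1, chr9:121642466-121642715, plus strand: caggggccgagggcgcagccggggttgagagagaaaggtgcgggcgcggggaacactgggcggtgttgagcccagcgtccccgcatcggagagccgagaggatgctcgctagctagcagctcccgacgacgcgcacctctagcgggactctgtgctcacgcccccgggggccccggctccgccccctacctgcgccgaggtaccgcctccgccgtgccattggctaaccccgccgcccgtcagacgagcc
The capitals mark a match to a motif. These 250 bases were 50.4% G or C with 9 CG pairs before Edn1 and 72.8% with 30 CG pairs before Vipr1. Whole entries of 300 bases were 51.3% and 73.7% G or C, against a median of 52.7% over 32851 promoters. Motifs were searched in the 300 bases on both strands: AP-1 (TGANTCA, present in 7.81% of all promoters), CRE (TGACGTCA, 1.79%), TATA box (TATAAA, 13.6%), the GATA motif (with the letters AGATAA, 11.2%) and TEAD (GGAATG, 14.7%). No motif overlapped another where found. Edn1 held the TEAD letters on the opposite strand, from base 44 of the entry, and the GATA letters on the opposite strand, from base 259, after the start. Vipr1 and the entries of Ece1, Ednra, Ednrb and Pth1r held none of the 5 motifs in these windows, and a match is a description of the letters and not of a bound site.

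Edn1 (ENSMUSG00000021367) lies on the plus strand of chromosome 13 of GRCm38, from 42301476 to 42307990, and its precursor is the source of the endothelin-1 peptide. No count of Edn1 was recorded in either 0 h sample. At 3 h, samples numbered 1, 2 and 3 held 9.62, 7.19 and 7.41 CPM, and at 6 h they held 0, 6.36 and 22.7 CPM. Edn1 was thus low in all 6 of these samples. At 12 h the levels were 134, 119 and 65.6 CPM, at 18 h they were 216, 59.8 and 87.0 CPM, at 24 h samples 1 and 2 held 243 and 122 CPM, and at 96 h samples 1, 2 and 3 held 106, 41.0 and 57.6 CPM. Every sample from 12 h on therefore lay above every sample of the first 6 h, and the ranges at 12, 18, 24 and 96 h overlapped from each time to the next in order of level. Against the 3-count floor of the 0 h libraries (1.13 CPM on average), the mean was at least 7.15-fold higher at 3 h, at least 8.56-fold at 6 h, at least 94.2-fold at 12 h, at least 107-fold at 18 h, at least 162-fold at 24 h and at least 60.3-fold at 96 h.

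Edn1 was called higher at every time, with adjusted p of 0.0581, 0.0267, 0.0014, 0.00141, 0.00154 and 0.00323 by edgeR after 3, 6, 12, 18, 24 and 96 h. The bounds on the fold moved when single samples were left out. They ran from 5.36 to 10.7 at 3 h, 2.82 to 12.9 at 6 h, 70.6 to 141 at 12 h, 65.0 to 161 at 18 h, 108 to 243 at 24 h and 43.7 to 90.5 at 96 h, lowest at 6 h without sample 3 and at 18 h without sample 1, and highest at each time without sample 3 at 0 h. The fitted fold change depends on the prior count, since 0 h held no count, and is not given. At 3 h the call was lost without sample 3 at 0 h (adjusted p = 0.224 by edgeR), without sample 2 at 0 h (0.333) and without sample 1 at 3 h (0.101), and at 6 h it was lost without either 0 h sample (0.121 and 0.200). The calls from 12 h on were kept in each alternative run but one. With samples 1 and 3 only, which leaves 1 sample at 0 h, Edn1 was not called at any time (adjusted p of 0.575, 0.316, 0.106, 0.102, 0.134 and 0.171 by edgeR after 3, 6, 12, 18, 24 and 96 h). The step from 6 h to 12 h, where the mean went from 9.67 ± 11.7 (n = 3) to 106 ± 36.0 CPM (n = 3), was not called by edgeR (adjusted p = 0.111). It was called by DESeq2 (adjusted p = 0.00497), without a filter (0.079 by edgeR) and without sample 1 or 3 at 6 h (0.085 and 0.0432). The fall in mean from 183 ± 85.5 (n = 2) at 24 h to 68.0 ± 33.5 CPM (n = 3) at 96 h was not called either (adjusted p = 0.608 by edgeR).

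Endothelial cells are a known source of endothelin-1 in the liver, so the level of Edn1 is given beside 12 markers of sinusoidal endothelium. Their sum lay between 915 and 1336 CPM at 0 h, 1200 and 4352 CPM at 3 h, 325 and 1262 CPM at 6 h, 160 and 764 CPM at 12 h, 181 and 601 CPM at 18 h, 174 and 501 CPM at 24 h, and 13.8 and 233 CPM at 96 h. The sum was highest at 3 h and lowest at 96 h. Of the 12 markers, 1 (Lyve1) was at 0 in all samples of 0 h, 1 other (Tek) in all of 24 h, 2 in all of 18 h and 3 in all of 96 h. Within each time from 3 h on, the sample numbered 1 held the highest sum. At 3, 12, 18, 24 and 96 h it also held the highest level of Edn1. At 6 h the order was reversed, with marker sums of 1262, 563 and 325 CPM in samples 1, 2 and 3. Edn1 in the same samples was at 0, 6.36 and 22.7 CPM. At 3 h sample 1 had the largest sum of all samples, 4352 CPM, with Edn1 at 9.62 CPM. Cdh5 (VE-cadherin of endothelial junctions) was at 40.7 and 28.1 CPM at 0 h, at 244, 81.1 and 69.8 CPM in samples 1, 2 and 3 at 12 h, at 227 and 81.0 CPM in samples 1 and 2 at 24 h, and at 36.7, 0 and 5.90 CPM in samples 1, 2 and 3 at 96 h. Cdh5 was not called at any time against 0 h (adjusted p = 0.327 at 12 h, edgeR). Its pattern was not that of most of the 12 markers. Stab1, Clec4g, Kdr, Fcgr2b, Oit3, Gpr182 and Dnase1l3 lay lower in every 12 h sample than in both 0 h samples. Lyve1 lay higher, like Cdh5, and Stab2, Pecam1 and Tek overlapped between these times. At 12 h edgeR called 0 of the 12 markers. The alternative with samples numbered 2 and 3 only was chosen after seeing these markers. There 24 h is a single sample, assumed to vary like the other groups. In samples 2 and 3, Edn1 had no count at 0 h and was at 119 and 65.6 CPM at 12 h. These samples held endothelial transcripts too, with marker sums of 160 and 166 CPM at 12 h. The part of endothelial cells in the level of Edn1 was not tested.

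**Figure D3:**
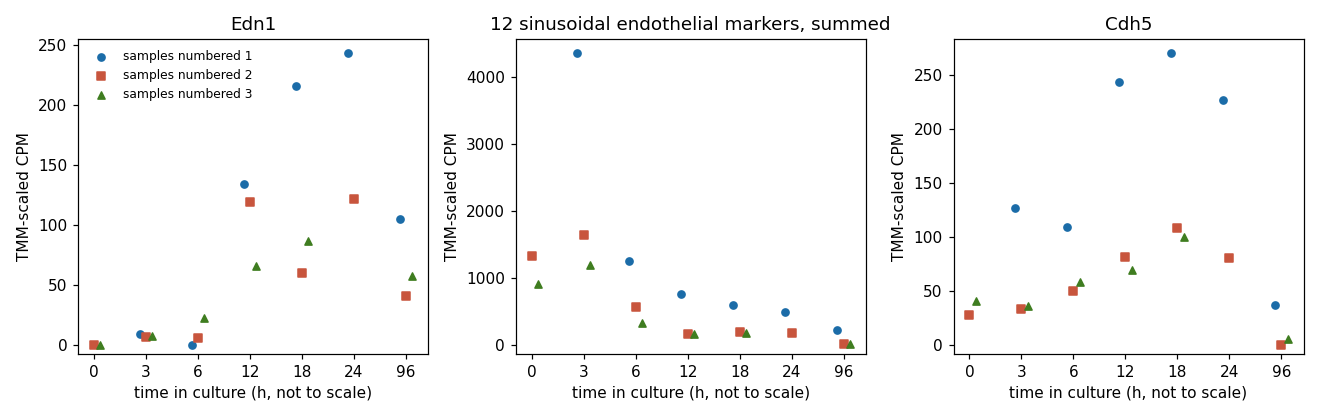
Level of Edn1 (left), the summed level of 12 sinusoidal endothelial markers (middle) and the level of Cdh5 (right) in every sample, all in TMM-scaled CPM, against time in culture (h, not to scale). The samples numbered 1 (circles) lie highest for the marker sum at every time from 3 h and for Edn1 from 12 h, and in samples 2 and 3 Edn1 lies between 41.0 and 122 CPM from 12 h on. At 6 h, where sample 1 has the highest marker sum, its Edn1 is at 0. Cdh5 is among the 12 markers, and others of them, such as Kdr, were lower at 12 h than at 0 h.

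Ece1 (ENSMUSG00000057530; chromosome 4 of GRCm38, 137862237 to 137965229, plus strand) encodes the membrane protease that releases active endothelin-1. It was at 948 and 881 CPM in samples 2 and 3 at 0 h. At 3 h, samples 1, 2 and 3 held 1439, 1240 and 1419 CPM, all above 0 h, but the change was not called (log2 fold change 0.58, SE 0.24, adjusted p = 0.248 by edgeR). The level then fell from 3 h to 6 h, to 656, 373 and 449 CPM, a log2 fold change of -1.47 (SE 0.21, adjusted p = 0.00132 by edgeR), and again from 6 h to 12 h, to 298, 183 and 214 CPM (-1.09, SE 0.21, adjusted p = 0.016 by edgeR). Levels were 320, 315 and 237 CPM at 18 h, 393 and 465 CPM at 24 h, and 513, 459 and 503 CPM at 96 h. In order of level, 3 h stood above 0 h and 0 h above 6 h without overlap, 6, 96 and 24 h overlapped as neighbours, and 18 and 12 h lay below them.

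Against 0 h, Ece1 was called lower at 12 h, where it had 25.3% of its mean 0 h level (log2 fold change -1.98, SE 0.23, adjusted p = 2.2e-05 by edgeR), at 18 h (-1.65, adjusted p = 0.000127) and at 24 h (-1.09, adjusted p = 0.0141). At 6 h and 96 h the adjusted p was 0.0212 and 0.0218 (edgeR), with log2 fold changes of -0.89 and -0.90 that are under the fold limit. The call of Ece1 at 24 h was lost without sample 1 at 24 h (-0.98, adjusted p = 0.151 by edgeR), with samples 2 and 3 only (-0.97, 0.0901), with samples 1 and 3 only (-1.16, 0.190) and with scaling on library size (-0.81, 0.0805). The step from 6 h to 12 h was lost without sample 1 at 6 h (-0.83) and without sample 2 at 12 h (-0.93), both under the fold limit, and with samples 1 and 3 only (-1.09, adjusted p = 0.149 by edgeR). Ece1 at 6 h passed the fold limit with DESeq2 (-1.11) and without sample 1 at 6 h or with samples 2 and 3 only (-1.15 in both). At 96 h it passed with DESeq2 (-1.04).

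Ednra (ENSMUSG00000031616; chromosome 8 of GRCm38, 77663031 to 77724464, minus strand) encodes the endothelin A receptor, which mediates contraction of smooth muscle. The gene overlaps 4933431K23Rik on the other strand, which held 167 counts over all samples, and strand use in counting is not given in the sources used here. Ednra was at 529 and 524 CPM in samples 2 and 3 at 0 h. It was at 231, 222 and 333 CPM in samples 1, 2 and 3 at 3 h and at 210, 231 and 247 CPM at 6 h. Levels at 3 h and 6 h overlapped, and all 6 samples lay below both 0 h samples. The log2 fold changes of -1.01 at 3 h and -1.20 at 6 h were not called (SE 0.54, adjusted p = 0.406 and 0.202 by edgeR), while DESeq2 called Ednra at 6 h (-1.42, adjusted p = 0.062), as did edgeR on those 2 groups only (-1.09, adjusted p = 0.0304).

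From 12 h Ednra was called lower. Samples 1, 2 and 3 held 47.9, 115 and 38.3 CPM at 12 h and 62.6, 23.9 and 56.2 CPM at 18 h, samples 1 and 2 held 20.2 and 38.1 CPM at 24 h, and samples 1, 2 and 3 held 33.0, 13.3 and 7.75 CPM at 96 h. Neighbouring times overlapped from 12 h on, and none of these samples reached the lowest of 6 h. Relative to 0 h, Ednra changed by -2.97 on the log2 scale at 12 h (SE 0.56, adjusted p = 0.0015 by edgeR), -3.47 at 18 h, -4.17 at 24 h and -4.88 at 96 h (SE 0.60, adjusted p = 5.4e-05 by edgeR). The mean at 96 h, 18.0 ± 13.3 CPM (n = 3), was 3.42% of that at 0 h, 526 ± 3.59 CPM (n = 2). None of these 4 calls was lost in any alternative run. The step of Ednra from 6 h to 12 h (-1.77, SE 0.51, adjusted p = 0.111 by edgeR) was not called, but was with DESeq2 (0.0112), without a filter (0.082), without sample 2 at 12 h (0.055) or at 18 h (0.0832) and without sample 1 or 3 at 96 h (0.0663 and 0.0855).

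Ednrb (ENSMUSG00000022122; chromosome 14 of GRCm38, 103814625 to 103844402, minus strand) encodes the endothelin B receptor, which also clears the peptide and which in endothelium drives nitric oxide release. It was at 393 and 364 CPM in samples 2 and 3 at 0 h, at 664, 824 and 865 CPM in samples 1, 2 and 3 at 3 h, and at 565, 673 and 677 CPM at 6 h. All 6 samples of 3 h and 6 h lay above both of 0 h. The rise at 3 h to 207% of the 0 h mean was called (log2 fold change 1.05, SE 0.28, adjusted p = 0.0433 by edgeR) and lay close to the fold limit. It was not called with DESeq2 (0.97, adjusted p = 0.0074), with library size scaling (1.00, which is under the limit before rounding, adjusted p = 0.0527), without sample 3 or 2 at 0 h (adjusted p = 0.284 and 0.184 by edgeR) without sample 3 or 2 at 3 h (adjusted p = 0.101 in each case) or with samples 1 and 3 only (0.115). At 6 h the log2 fold change of 0.75 was not called (SE 0.28, adjusted p = 0.112 by edgeR).

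The largest step of Ednrb was between 6 h and 12 h, when it fell by 2.56 on the log2 scale (SE 0.26, adjusted p = 8.63e-05 by edgeR). Samples 1, 2 and 3 then held 79.7, 152 and 92.9 CPM at 12 h, 79.2, 93.9 and 80.3 CPM at 18 h, and 80.6, 56.6 and 86.2 CPM at 96 h, and samples 1 and 2 held 54.9 and 34.1 CPM at 24 h. The ranges at 12, 18 and 96 h overlapped, and both samples at 24 h lay below all of these. Relative to 0 h, Ednrb changed by -1.81 on the log2 scale at 12 h, -2.16 at 18 h, -3.09 at 24 h (SE 0.32, adjusted p = 1.21e-05 by edgeR) and -2.35 at 96 h (SE 0.27, adjusted p = 2.94e-05 by edgeR). All 4 of these calls and the step from 6 h to 12 h were kept in each alternative run.

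The balance of the receptor genes was compared as the log2 of Ednrb counts over Ednra counts within each sample, which does not depend on the scaling of libraries. Since the genes differ in their 3' ends, only its differences between times are read. The ratio was -0.43 and -0.52 in samples 2 and 3 at 0 h, the lowest of all 19 samples. At 3 h it was 1.52, 1.89 and 1.38 in samples 1, 2 and 3, and at 6 h it was 1.43, 1.54 and 1.45. The mean was 0.80 ± 0.44 (n = 3) at 12 h, 0.94 ± 0.90 (n = 3) at 18 h, 0.64 ± 1.13 (n = 2) at 24 h and 2.28 ± 1.10 (n = 3) at 96 h, against -0.48 ± 0.069 (n = 2) at 0 h. Samples spread more from 12 h on, when both genes held fewer counts. The ranges of those times overlapped each other, except that all samples at 12 h lay below all at 96 h (highest 1.277, lowest 1.285). Differences between times made up 65.27% of the sum of squares (one-sided permutation test with 100000 resamples, p = 0.0176). The share was 58.06% without sample 3 at 0 h (permutation p = 0.0815) and 59.04% without sample 2 at 0 h (permutation p = 0.0716), so that the result rested on having both 0 h samples. With samples 1 and 3 only it was 74.16% (permutation p = 0.128).

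**Figure D4:**
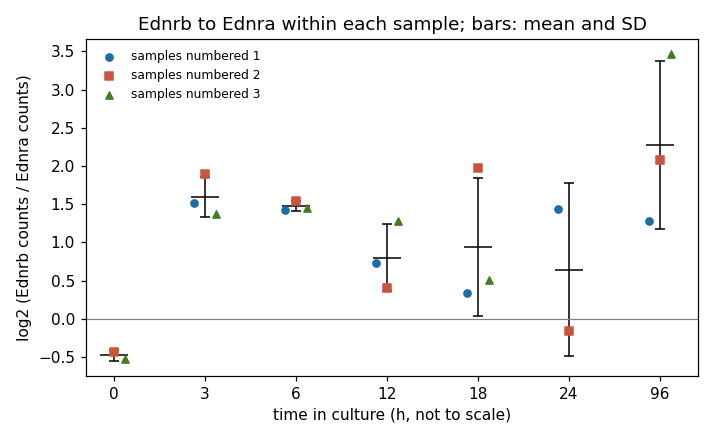
Log2 ratio of Ednrb counts to Ednra counts in every sample (vertical axis) against time in culture (horizontal axis, h, not to scale), with symbols for the sample number, black bars for mean and SD, and a line at a ratio of 1. Both 0 h samples lie below all others, at -0.43 and -0.52, and the samples at 96 h spread from 1.29 to 3.46.

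Agtr1a (ENSMUSG00000049115; chromosome 13 of GRCm38, 30336441 to 30382867, plus strand) encodes the type 1a angiotensin II receptor, which mediates constriction and growth responses. It was at 648 and 459 CPM in samples 2 and 3 at 0 h. At 3 h, samples 1, 2 and 3 held 302, 271 and 352 CPM, all below 0 h, which was not called (log2 fold change -0.85, SE 0.50, adjusted p = 0.452 by edgeR). At 6 h they held 62.6, 108 and 132 CPM, below 0 h (log2 fold change -2.45, SE 0.50, adjusted p = 0.00453 by edgeR). The lowest levels followed, with 18.3, 12.6 and 36.7 CPM at 12 h, 17.1, 19.3 and 4.47 CPM at 18 h, and 10.5 and 17.6 CPM in samples 1 and 2 at 24 h. At 96 h, samples 1, 2 and 3 held 51.6, 58.9 and 63.8 CPM. All 3 lay above every sample of 12, 18 and 24 h, and their range overlapped that of 6 h by the sample of 62.6 CPM.

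At 12 h Agtr1a was at 4.07% of its 0 h mean (log2 fold change -4.61, SE 0.54, adjusted p = 2.16e-05 by edgeR). The log2 fold change was -5.35 at 18 h (adjusted p = 7.04e-06), -5.29 at 24 h (adjusted p = 6.48e-05) and -3.25 at 96 h, when the mean was 10.5% of that at 0 h (SE 0.52, adjusted p = 0.000527 by edgeR). These calls against 0 h were kept in each alternative, and that at 6 h was lost with samples 1 and 3 only (adjusted p = 0.128 by edgeR). Agtr1a was the only member called between 24 h and 96 h, a rise of 2.04 on the log2 scale from 14.1 ± 5.02 (n = 2) to 58.1 ± 6.15 CPM (n = 3) (SE 0.55, adjusted p = 0.0744 by edgeR). That call was lost with samples 2 and 3 only (adjusted p = 0.654 by edgeR), with samples 1 and 3 only (0.582), without sample 1 or 2 at 24 h (0.476 and 0.315) and without sample 1, 2 or 3 at 96 h (0.119, 0.135 and 0.170).

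The steps of Agtr1a from 3 h to 6 h (-1.61, SE 0.46, adjusted p = 0.0694 by edgeR) and from 6 h to 12 h (-2.16, SE 0.47, adjusted p = 0.0314 by edgeR) were called. The earlier of them was lost without sample 1, 2 or 3 at 3 h (adjusted p = 0.135, 0.107 and 0.167, edgeR), without sample 1, 2 or 3 at 6 h (0.231, 0.114 and 0.101), with samples 2 and 3 only (0.519) and with samples 1 and 3 only (0.235). The later of them was lost without sample 1 or 2 at 12 h (adjusted p = 0.112 and 0.130 by edgeR), with samples 2 and 3 only (0.221) and with samples 1 and 3 only (0.370).

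Pth1r (ENSMUSG00000032492; chromosome 9 of GRCm38, 110722085 to 110747145, minus strand) encodes the receptor shared by parathyroid hormone and its related peptide, which relaxes vessels in many tissues. Both 0 h samples stood close together, at 657 CPM in sample 2 and 636 CPM in sample 3. At 3 h, samples 1, 2 and 3 held 165, 208 and 171 CPM, 28.01% of the 0 h mean, without overlap with 0 h. The log2 fold change of -1.84 was not called in the fit of all samples (SE 1.18, adjusted p = 0.497 by edgeR) but was in a fit of those 2 groups only (-1.78, adjusted p = 0.00879 by edgeR). At 6 h the samples held 0, 61.0 and 35.6 CPM, and at 12 h samples 1 and 3 were listed at 0 and sample 2 held 5.09 CPM.

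From 18 h Pth1r was found in every sample again, at 27.3, 18.8 and 13.2 CPM at 18 h, 34.97 and 12.6 CPM in samples 1 and 2 at 24 h, and 36.7, 36.2 and 39.4 CPM at 96 h. All 3 samples at 96 h lay above all samples of 12, 18 and 24 h, but neither 12 h to 18 h (log2 fold change 3.50, SE 1.27, adjusted p = 0.465 by edgeR) nor 24 h to 96 h (0.66, adjusted p = 0.988) was called. Against 0 h, Pth1r was called lower at 6 h (-4.32, SE 1.27, adjusted p = 0.0424 by edgeR), 12 h (-8.54, SE 1.54, adjusted p = 0.0011), 18 h (-5.03, adjusted p = 0.0175), 24 h (-4.77, adjusted p = 0.0755) and 96 h (-4.11, adjusted p = 0.055). The value at 12 h rests on the counts of 1 sample. The step of Pth1r from 6 h to 12 h (-4.22, adjusted p = 0.142 by edgeR) was not called, but was with DESeq2 (0.0196) and without sample 1 at 6 h (0.0311) or sample 2 at 12 h (0.0404). The call at 6 h was lost without sample 3 or 2 at 0 h (adjusted p = 0.120 and 0.137 by edgeR) and without sample 3 at 6 h (0.113). At 24 h it was lost without sample 3 or 2 at 0 h (0.165 and 0.186), without sample 2 at 3 h (0.103) and without sample 1 or 2 at 24 h (0.233 and 0.442). At 96 h it was lost without any of the 5 samples compared (adjusted p between 0.145 and 0.172, edgeR), while the log2 fold change stayed between -4.15 and -4.08. With samples 1 and 3 only, Pth1r was called at 12 h and not at 6, 18, 24 and 96 h (adjusted p = 0.146, 0.151, 0.537 and 0.307 by edgeR).

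Vipr1 (ENSMUSG00000032528; chromosome 9 of GRCm38, 121642716 to 121672954, plus strand) encodes VPAC1, a receptor for vasoactive intestinal peptide and PACAP that raises cyclic AMP. It was at 2608 and 1905 CPM in samples 2 and 3 at 0 h and at 1123, 1265 and 1450 CPM in samples 1, 2 and 3 at 3 h, which was not called (log2 fold change -0.82, SE 0.86, adjusted p = 0.736 by edgeR). At 6 h the level was 203, 164 and 289 CPM, 9.69% of the 0 h mean (-3.37, SE 0.89, adjusted p = 0.0239 by edgeR). The levels of 0, 3 and 6 h followed each other without overlap. At 12 h the samples held 15.98, 59.0 and 16.4 CPM, at 18 h 19.5, 0 and 23.5 CPM, at 24 h 14.2 and 10.7 CPM in samples 1 and 2, and at 96 h 28.96, 28.1 and 12.6 CPM.

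The 4 latest times of Vipr1 overlapped as neighbours in order of level, and all of their samples lay below the lowest of 6 h. Relative to 0 h, Vipr1 changed by -6.21 on the log2 scale at 12 h (SE 1.00, adjusted p = 0.000404 by edgeR), -7.31 at 18 h (SE 1.05, adjusted p = 0.00016), -7.51 at 24 h (SE 1.27, adjusted p = 0.00105) and -6.61 at 96 h (SE 1.02, adjusted p = 0.00042), when 1.03% of the 0 h mean was left. These 4 calls were kept in each alternative, while that at 6 h was lost without sample 2 at 0 h (adjusted p = 0.107 by edgeR) and with samples 2 and 3 only (0.192). The steps from 3 h to 6 h (-2.55, adjusted p = 0.116 by edgeR) and from 6 h to 12 h (-2.84, adjusted p = 0.128 by edgeR) were not called, although the samples did not overlap. Both were called with DESeq2 (0.0165 and 0.0138), without a filter (0.0707 and 0.0816), with the 2 groups only (0.0077 and 0.0921) and without sample 2 at 18 h, which is listed at 0 (0.00488 and 0.00473 by edgeR). Within the isolation date of samples 1 and 3 both were called too (0.0269 and 0.00788 by edgeR), and the earlier was also called without sample 2 at 12 h (0.0965).

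The 15 stellate cell markers also fell, with 8 of 15 called lower at 6 h, 14 at 12 h and at 18 h, and 12 at 24 h and at 96 h. Of all genes tested, 4.35%, 9.1%, 8.21%, 3.86% and 5.03% were called lower at 6, 12, 18, 24 and 96 h. The 10 hepatocyte markers fell too, from 7851 and 3868 CPM in samples 3 and 2 at 0 h to between 438 and 1374 CPM at 3 h and 83.4 and 411 CPM at 6 h. Of these, 1 was called lower at 3 h, 5 at 6 h and 7 at 12 h, against 1.39%, 4.35% and 9.1% of all genes. In samples 3 and 2 at 0 h, Ednra was at 524 and 529 CPM, Pth1r at 636 and 657 CPM, and Ednrb at 364 and 393 CPM. Agtr1a was at 459 and 648 CPM and Vipr1 at 1905 and 2608 CPM. These are single samples, and a relation of the receptors to the hepatocyte sum was not tested. Markers of Kupffer cells and leukocytes (12 genes) summed to 371 to 427 CPM at 0 h and 11.2 to 22.9 CPM at 96 h, with Cd79a and Nkg7 at 0 in all samples. Markers of portal fibroblasts (8 genes) summed to 266 to 362 CPM at 0 h and 15.5 to 30.0 CPM at 96 h, and those of vascular smooth muscle (6 genes) to 280 to 332 CPM and 261 to 361 CPM. Cholangiocyte markers (6 genes) stayed at or below 19.1 CPM, with Krt19 and Krt7 at 0 in all samples. The markers of activated HSCs (8 genes) summed to 2846 to 3657 CPM at 0 h and 5636 to 7796 CPM at 96 h, when 5 were called higher and 1 lower (background 5.83% and 5.03%). The part of these cell types in the levels of the receptors was not tested.

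Other genes of the same pathways were taken from lists. The lists were also chosen with earlier results of these data known, so their shares beside the background are a description only. Of 10 further genes of the endothelin axis, including the ligands Edn2 and Edn3 and the enzyme Ece2, 0 passed the filter on low counts. Of 16 genes of the renin-angiotensin axis, 8 were tested and 3 were called lower at any time against 0 h, with 0 called higher by edgeR and 1 by DESeq2. Of all genes tested, 12.8% were called higher and 14.7% lower at any time. The 3 lower calls became 1 without sample 3 at 0 h, 2 with samples 2 and 3 or samples 1 and 3 only, and 4 with the 2 groups only. Of the 8, 1 was higher at an unadjusted p below 0.05 at 6, 12, 18 and 96 h. Agtrap, whose product binds the type 1 angiotensin receptor and promotes its internalization, fell from 115 ± 14.8 (n = 2) at 0 h to 8.23 ± 5.80 CPM (n = 3) at 12 h (log2 fold change -3.80, SE 0.64, adjusted p = 0.000624 by edgeR). Lnpep, an aminopeptidase that binds angiotensin IV, fell to 60.3 ± 5.27 CPM (n = 3) at 12 h (-1.29, adjusted p = 0.0148), which was lost without sample 3 at 0 h (adjusted p = 0.299 by edgeR). At 96 h the means of Agtrap and Lnpep were 31.9 and 84.9 CPM. The median log2 fold change of the 8 genes ran from 0.16 at 3 h to -0.99 at 12 h and -0.40 at 96 h.

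Of 22 other peptides and receptors of the parathyroid hormone and VIP families and class B, 5 were tested. Of these, 4 were called lower at any time (background 14.7%) and 0 higher, also 0 higher by DESeq2 and at an unadjusted p below 0.05 (edgeR). The 4 became 2 without sample 3 at 0 h and with samples 2 and 3 or samples 1 and 3 only. Their median log2 fold change was -0.80 at 3 h, -2.66 at 12 h and -3.45 at 96 h. Calcrl, the receptor that with RAMP1 binds calcitonin gene-related peptide, fell from 758 ± 44.9 (n = 2) at 0 h to 59.2 ± 30.7 CPM (n = 2) at 24 h (-3.68, SE 0.39, adjusted p = 1.33e-05 by edgeR). Ramp1 itself fell from 220 ± 51.3 (n = 2) to 1.47 ± 2.54 CPM (n = 3) at 12 h (-7.11, SE 1.85, adjusted p = 0.0158 by edgeR), which was not called with samples 1 and 3 only (0.107), and had a mean of 20.1 CPM at 96 h. Adcyap1r1, the PACAP receptor, was lowest at 96 h with 7.83 ± 7.16 CPM (n = 3), a log2 fold change of -3.69 (adjusted p = 0.0585 by edgeR) that was not called without sample 2 or 3 at 0 h (0.134 and 0.198), without sample 3 at 96 h (0.138), with the 2 groups only (0.156), with samples 2 and 3 only (0.188) or with samples 1 and 3 only (0.127).

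Of 59 other vasoactive receptors, 30 were tested, with 6 called higher and 6 lower at any time, against 12.8% and 14.7% of all genes. There were 3 higher and 5 lower without sample 3 at 0 h, 4 and 6 without sample 2 at 0 h, 4 and 3 with samples 2 and 3 only, 2 and 5 with samples 1 and 3 only, and 8 and 9 with DESeq2. Their median log2 fold change was 0.29 at 3 h and 0.029 at 6 h, or 0 at both with genes absent from a group set to their bound, and -0.69 at 24 h. Bdkrb2, the bradykinin B2 receptor, had no count at 0 h and 29.7 ± 15.4 CPM (n = 3) at 6 h, at least 26.3-fold higher (adjusted p = 0.0413 by edgeR). This call was lost without sample 3 or 2 at 0 h (adjusted p = 0.177 and 0.217 by edgeR), with samples 2 and 3 only (0.156) and with samples 1 and 3 only (0.355), and the bound was at least 39.5-fold without sample 3 at 0 h. The mean of Bdkrb2 was 23.9 CPM at 3 h and 15.2 CPM at 12 h, where sample 3 was listed at 0. It was 0 CPM at 18 h and at 24 h, and 7.24 CPM at 96 h. Adra2b, an alpha-2 adrenergic receptor, fell from 300 ± 27.1 (n = 2) to 1.59 ± 2.76 CPM (n = 3) at 6 h (-7.50, SE 1.90, adjusted p = 0.0181 by edgeR). Lpar1, a lysophosphatidic acid receptor, was at 62.9 ± 3.43 CPM (n = 2) at 0 h and 2.47 ± 2.30 CPM (n = 3) at 12 h (-4.67, adjusted p = 0.00428). At 96 h Lpar1 had a mean of 40.2 CPM and was not called against 0 h (-0.64, adjusted p = 0.770 by edgeR). Npr2, the receptor of C-type natriuretic peptide, was listed at 0 in all samples of 96 h, at least 83.3-fold lower than at 0 h (adjusted p = 0.0594 by edgeR). It was also listed at 0 in all samples of 18 h, but was at 27.5 and 17.9 CPM in samples 1 and 2 at 24 h. The call at 96 h was lost without sample 1, 2 or 3 at 96 h (adjusted p = 0.132, 0.146 and 0.152 by edgeR). It was also lost without sample 3 or 2 at 0 h and with samples 2 and 3 only, and DESeq2 gave no adjusted p for this comparison.

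Of 37 genes of cyclic AMP and cyclic GMP signalling, 28 were tested, with 3 called higher and 12 lower at any time (background 12.8% and 14.7%) and medians between -0.53 at 3 h and -1.03 at 12 h. The 3 higher calls became 1 without sample 2 at 0 h and with samples 2 and 3 only, and 2 without a filter and with samples 1 and 3 only. Adcy5, an adenylyl cyclase, fell from 66.7 ± 6.33 (n = 2) to 0.864 ± 0.857 CPM (n = 3) at 12 h (-6.27, SE 1.18, adjusted p = 0.00154 by edgeR) and had a mean of 14.1 CPM at 96 h. Prkg1, the kinase activated by cyclic GMP, and Mrvi1, its partner at calcium stores, fell by 3.36 at 18 h and by 3.72 at 12 h on the log2 scale (adjusted p = 0.000903 and 0.0186 by edgeR). The call of Mrvi1 was lost with the 2 groups only (0.206), and its mean was 59.5 CPM at 0 h, 4.54 CPM at 12 h and 64.1 CPM at 96 h. Prkg1 went from a mean of 78.0 CPM at 0 h to 7.58 CPM at 18 h and 33.4 CPM at 96 h. At 96 h neither was called against 0 h (adjusted p = 1 for Mrvi1 and 0.220 for Prkg1, edgeR). Pde4b, which degrades cyclic AMP, had a mean of 811 CPM at 3 h against 267 ± 87.6 CPM (n = 2) at 0 h and 31.3 ± 20.4 CPM (n = 3) at 96 h (-3.10 against 0 h, SE 0.46, adjusted p = 0.000304 by edgeR).

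Of 23 genes that switch off receptor signalling, 19 were tested, and 2 were called higher and 8 lower at any time (background 12.8% and 14.7%), with medians between -0.21 at 3 h and -1.78 at 18 h. The higher calls became 0 without either 0 h sample and with samples 2 and 3 only, 1 with samples 1 and 3 only and without a filter, 3 with DESeq2 and 4 with the 2 groups only, and the lower calls became 5 with samples 1 and 3 only. Rgs5, which shortens Gq and Gi signals in pericytes, fell from 3707 ± 812 (n = 2) at 0 h to 50.9 ± 11.2 CPM (n = 3) at 96 h (-6.19, SE 0.23, adjusted p = 2.64e-10 by edgeR). Of the same family, Rgs4 was listed at 0 in all samples of 18 h, at least 213.8-fold lower than at 0 h (adjusted p = 0.00158 by edgeR). The bound was 323.9-fold without sample 3 and 103.7-fold without sample 2 at 0 h. The mean of Rgs4 was 129 CPM at 0 h, 211 CPM at 3 h and 23.2 CPM at 96 h, where it was not called (adjusted p = 0.282 by edgeR). Rgs2 was listed at 0 in all of 12 h, at least 80.01-fold lower (adjusted p = 0.0103 by edgeR). Rgs16 went the other way, from no count at 0 h to 57.0 ± 10.1 CPM (n = 3) at 96 h, at least 50.5-fold higher (adjusted p = 0.056 by edgeR). The call of Rgs16 was lost without sample 3 or 2 at 0 h (adjusted p = 0.209 and 0.272 by edgeR), without sample 2 at 96 h (0.1002) and with samples 2 and 3 only (0.190).

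**Figure D5:**
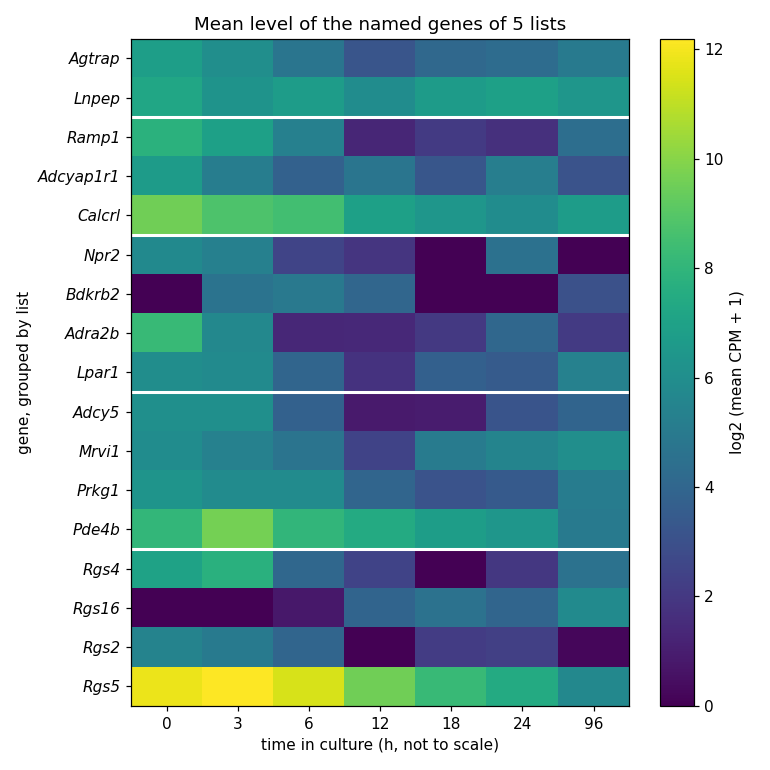
Mean level of 17 genes from 5 pathway lists (rows, grouped by white lines in the order renin-angiotensin, parathyroid hormone and VIP family, other vasoactive receptors, cyclic nucleotides, desensitization) at each time in culture (columns, h, not to scale), coloured by log2 (mean CPM + 1). Rgs5 is brightest at 0 and 3 h and falls to 50.9 CPM at 96 h, and Bdkrb2 and Rgs16 start at 0 CPM.

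The genes whose pattern was most like each member were sought among 8581 genes by Pearson's r of log2 CPM over the 19 samples, which share libraries and time, so that r is a description only. For Edn1 these were Vcan (r = 0.946), a large matrix proteoglycan, Gm9703 (0.920) and Sqle (0.914), an enzyme of cholesterol synthesis. For Ednrb they were Dcn (0.950), Col14a1 (0.949) and Pam (0.946), of which Dcn, for decorin, is also among the 15 stellate cell markers. Vipr1 was most like Itga1 (0.936), Lum (0.935) and Pla2r1 (0.933), and Agtr1a was most like Tln2 (0.936), Rbms3 (0.934) and Lrp1 (0.927). Ednra was most like Cxcl10 (0.943), Srsf5 (0.938) and Zfp36 (0.937), and Ece1 was most like Smarca2 (0.935), Macf1 (0.934) and Aldh2 (0.923). The nearest to Pth1r was Agtrap (0.889), followed by Ctdspl (0.866) and Snord13 (0.864). Among the members, the highest r was 0.855 between Ednra and Vipr1, and all 6 values of Edn1 with the others were negative, from -0.784 with Agtr1a to -0.366 with Pth1r.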

How the data were processed

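RNASeq of 19 samples of HSCs was analysed from the raw counts per gene that the authors deposited, which are whole numbers without normalization. According to the study's methods, single-end reads were trimmed, mapped with STAR to GRCm38.p6 (mm10 in the submitters' processing notes) and assembled with StringTie. The libraries are given here as QuantSeq 3' mRNA-Seq FWD, a kit that the methods of the paper do not name. The counting tool, its strand setting and the annotation release are not given in the sources used here. The sample labels gave the group, number and isolation date of each sample. Samples numbered 1 and 3 share a date and number 2 has another, so that comparisons could be tested within the date of numbers 1 and 3 only, with 1 sample at 0 h and at 24 h.

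Counts were filtered with filterByExpr, scaled by TMM and fitted in 1 model of 7 times with edgeR 4.0.16 in R 4.3.3 (quasi-likelihood F test, 11 comparisons, Benjamini-Hochberg), after tests on simulated data. Standard errors were the log2 fold change divided by the square root of F. Other values were computed in Python 3.11.15 with pandas 2.3.3. Gene symbols and positions came from GENCODE, matched by identifier for 55141 rows. The members and lists were chosen with earlier results of these data known. All members were named, with up to 4 genes per pathway list that had the largest called change against 0 h and a mean of at least 10 CPM, and the 3 genes most like each member. A list of downstream signalling genes is not reported here.

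Alternatives were DESeq2 1.42.0, scaling on library size, no filter, the sample number as a block, the isolation date as a covariate, the 2 groups compared only, an adjusted p below 0.05 and leaving out each sample. The use of samples 2 and 3 only and of samples 1 and 3 only, and the alternatives for the pathway genes, were chosen after seeing the data.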

Additional observations from a re-analysis of the deposited data

How the results depend on the processing

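The count of members called against 0 h was 33, and it was 35 with DESeq2, 31 with library size scaling, 32 with only the 2 groups compared, 32 with samples 2 and 3 only, 20 with samples 1 and 3 only, 33 without a filter, 33 with the isolation date, 30 at an adjusted p below 0.05 and between 26 and 34 with single samples left out. With the replicate block it was 33, and 5 against 6 between successive times; the block ended the calls of Pth1r at 24 h (adjusted p = 0.148 by edgeR) and Agtr1a from 24 h to 96 h (0.111), added Ece1 at 6 h and changed no other. The labels do not say what the number marks, and deviations from the time means correlated with a mean r of 0.014 in the 51 pairs that share a number (highest 0.082) and -0.0070 in the 103 that do not; 13 of 19 samples had their highest mean r with their own number. Between successive times, 6 comparisons were called, against 11 with DESeq2, 10 without a filter, 3 with samples 2 and 3 only, 4 with samples 1 and 3 only and 5 to 9 with single samples left out. The between-time share of the Ednrb to Ednra ratio ran from 58.06% to 73.98% with single samples left out, was 65.39% with a pseudocount of 2 and 74.16% with samples 1 and 3 only (permutation p = 0.128), and had a permutation p of 0.0339 with labels permuted within the replicate block. Leaving out a sample at 0 h or 24 h, samples 2 and 3 only (24 h) and samples 1 and 3 only (0 h and 24 h) left 1 sample, which was then assumed to vary like the other groups. With samples 1 and 3 only, fewer of all genes were also called at each time against 0 h.

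Of 39 called comparisons of a member, 21 kept their call in every alternative and 0 changed sign. Signs did change for steps that were not called: with samples 2 and 3 only for Edn1 from 12 h to 18 h (-0.33) and Pth1r from 18 h to 24 h (-0.34), with samples 1 and 3 only for Ednra (0.43) and Vipr1 (0.38) from 12 h to 18 h, Agtr1a from 18 h to 24 h (-0.0073) and Ednra from 24 h to 96 h (0.011), and with single samples left out for Edn1 from 3 h to 6 h (-1.27 to 0.85), Edn1 from 12 h to 18 h (-0.53 to 0.49), Ednra from 12 h to 18 h (-0.78 to 0.12), Agtr1a from 18 h to 24 h (-0.36 to 0.45), Pth1r from 18 h to 24 h (-0.60 to 0.88) and Vipr1 from 18 h to 24 h (-0.75 to 0.38). Of the 17 pathway genes, 10 kept their call throughout and 0 changed sign.

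Over all genes, DESeq2 called 1006 higher and 589 lower at 3 h against 634 and 210 with edgeR, 1264 and 1403 against 1056 and 659 at 6 h, and 1099 and 1223 against 856 and 584 at 24 h. Its median over all genes was -0.12 at 6 h and -0.14 at 12 h, and with library size scaling it was 0.24 at 24 h and 0.22 at 96 h. The causes were not tested. At low levels, as of Pth1r, Vipr1 and Agtr1a from 12 h on, values of single samples rest on few counts or are listed at 0, which limits comparisons among these times.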
